A study of Mus musculus with 6 samples.

Results

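The genes described here encode the subunits, activators, inhibitor and assembly chaperones of the proteasome. They were chosen as the protein-coding genes whose symbol starts with Psm, a letter from a to g and a digit, which gave 50 of the 53465 genes counted. Psmc3ip matched the symbol only: it encodes a meiotic recombination factor, so 49 genes are proteasome genes, with 8 of the alpha ring, 11 of the beta ring, 6 ATPases, 11 non-ATPases, 6 activators and inhibitor and 7 assembly chaperones.

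RNA was sequenced from metaphase II (MII) oocytes of female Kunming (KM) mice aged 9 to 10 months, matured in vitro. The control group was matured without quercetin, a plant flavonol, and the treated group with 10 μM quercetin. Pools are called controls and treated or quercetin pools. Each group held 3 pools, and each pool combined 15 oocytes from 3 mice. The Smart-seq HT kit used for the libraries copies whole transcripts, so a long transcript gives more reads than a short one at the same level.

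The proteasome is a barrel of stacked alpha and beta rings that cuts up proteins tagged with ubiquitin, and a regulatory particle at its ends binds, unfolds and feeds in those proteins. Chaperones build both parts, and alternative caps open the barrel without ubiquitin. In oocytes it removes cyclin B and securin at anaphase, and the egg uses it again to clear maternal proteins after fertilization.

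Total counts were 8671210, 7880467 and 8905681 in control pools 1, 2 and 3, and 8465142, 9938743 and 8109613 in treated pools 1, 2 and 3. Levels are given as CPM, read counts relative to library sizes scaled by TMM (edgeR's trimmed mean of M-values), and 3 counts, the floor used for lower limits, corresponded to 0.328 to 0.375 CPM. This floor covers counting error only. The labelled cell type was checked with 10 oocyte markers, and all 10 were well above the floor, with the secreted oocyte protein gene Oosp1 at a mean of 6103 CPM in the controls. Of these, 5 were above 0 in log2 fold change and 5 below, with a median of 0.01. Gdf9, a growth factor of the oocyte, alone did not overlap between the groups, beside 5.43% of all tested genes that were higher without overlap. It was at 5846, 5562 and 5815 CPM in the controls and 7485, 5990.2 and 6641 CPM in treated pools (log2 fold change 0.22, SE 0.14), and with library sizes left unscaled its groups overlapped. Ooep, of the subcortical maternal complex, had an unadjusted p under 0.05 (log2 fold change -0.92, SE 0.38, adjusted p = 0.988), with 4367, 8081 and 6157 counts in the controls and 1885, 2454 and 5410 in treated pools, which overlapped. Its unadjusted p was no longer under 0.05 without control pool 2 (log2 fold change -0.63), control pool 3 (-0.94), quercetin pool 1 (-0.66) or quercetin pool 2 (-0.72), or with library sizes left unscaled (-0.97), and the value was -1.50 without quercetin pool 3.

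Of 12 cumulus and granulosa markers, Foxl2, Amh, Amhr2 and Ptx3 had 0 counts in every pool. The summed level of the 12 was 84.2, 70.2 and 86.0 CPM in the controls and 96.7, 96.2 and 91.4 CPM in the treated pools, most of it from the aromatase gene Cyp19a1. The quercetin pools were thus all above the control pools in this sum. Of the 4 tested markers 3 were above 0 in log2 fold change, Cyp19a1 (0.22), Kitl and Has2 (0.05), and 1 was below, Ptgs2 (-0.68, SE 0.61). Cyp19a1 and Kitl, 2 of the 4, were higher without overlap, beside 5.43% of all tested genes. Kitl, which encodes the Kit ligand, had an unadjusted p under 0.05 (log2 fold change 0.59, SE 0.21, adjusted p = 0.988), which was lost without control pool 1 (0.58) or control pool 2 (0.56). The 8 immune cell markers summed to 13.4, 12.2 and 8.30 CPM in the controls and 10.9, 9.19 and 11.8 CPM in treated pools, with Cd74 the most abundant, and overlapped between the groups. Mitochondrially encoded genes took 3.11%, 2.96% and 2.47% of counts in the controls and 2.28%, 2.22% and 2.09% in treated pools, without overlap. The share on Gm42418 and CT010467.1 was 0.0837%, 0.0966% and 0.0631% in the controls and 0.0370%, 0.0328% and 0.0417% in treated pools, also without overlap. The part of these differences in the values below was not tested.

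Pools of the same group differed. The zona pellucida gene Zp2 had 1990, 12980 and 5601 counts in the controls and 1045, 7734 and 11260 in treated pools, which overlapped widely. Control pool 2 had the lowest total count and, with 19374, the most genes with a count. Without it 241 genes had an unadjusted p under 0.05, against 477 with all 6 pools, and without quercetin pool 3 there were 1563.

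The comparison of quercetin with control asks whether the treatment changed the transcripts of the proteasome in these oocytes. Because the oocytes of a pool were sequenced together, fewer oocytes holding a transcript and less of it per oocyte cannot be told apart, and p-values measure the spread between pools. No proteasome gene passed edgeR's test at an adjusted p under 0.05, and neither did any gene with a fold change over 2 among the 11842 tested (0% called). At an unadjusted p under 0.05, 253 genes were higher (2.14% of those tested) and 224 lower (1.89%). DESeq2 called 12 genes of the whole table, the edgeR likelihood ratio test 16 and limma-voom 0, and all of these tests called 0 proteasome genes.

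Of the 49 proteasome genes, 40 passed the filter on low counts and were tested. At an unadjusted p under 0.05, 0 were higher and 1, Psma7, was lower. The log2 fold change was above 0 for 18 of them and below 0 for 22, with a range from -0.70 to 0.31. The median was -0.02, and with a pool left out it lay between -0.05 (control pool 1) and 0.02 (control pool 2), while over all tested genes it was -0.03. Their adjusted p ran from 0.988 to 0.999. For 32 of the 40 the 95% confidence interval lay wholly inside a 2-fold change in either direction. It did so for 7187 of the 11842 tested genes, a smaller share. The median SE was 0.21 for the 40 and 0.29 for all tested genes.

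**Figure D1:**
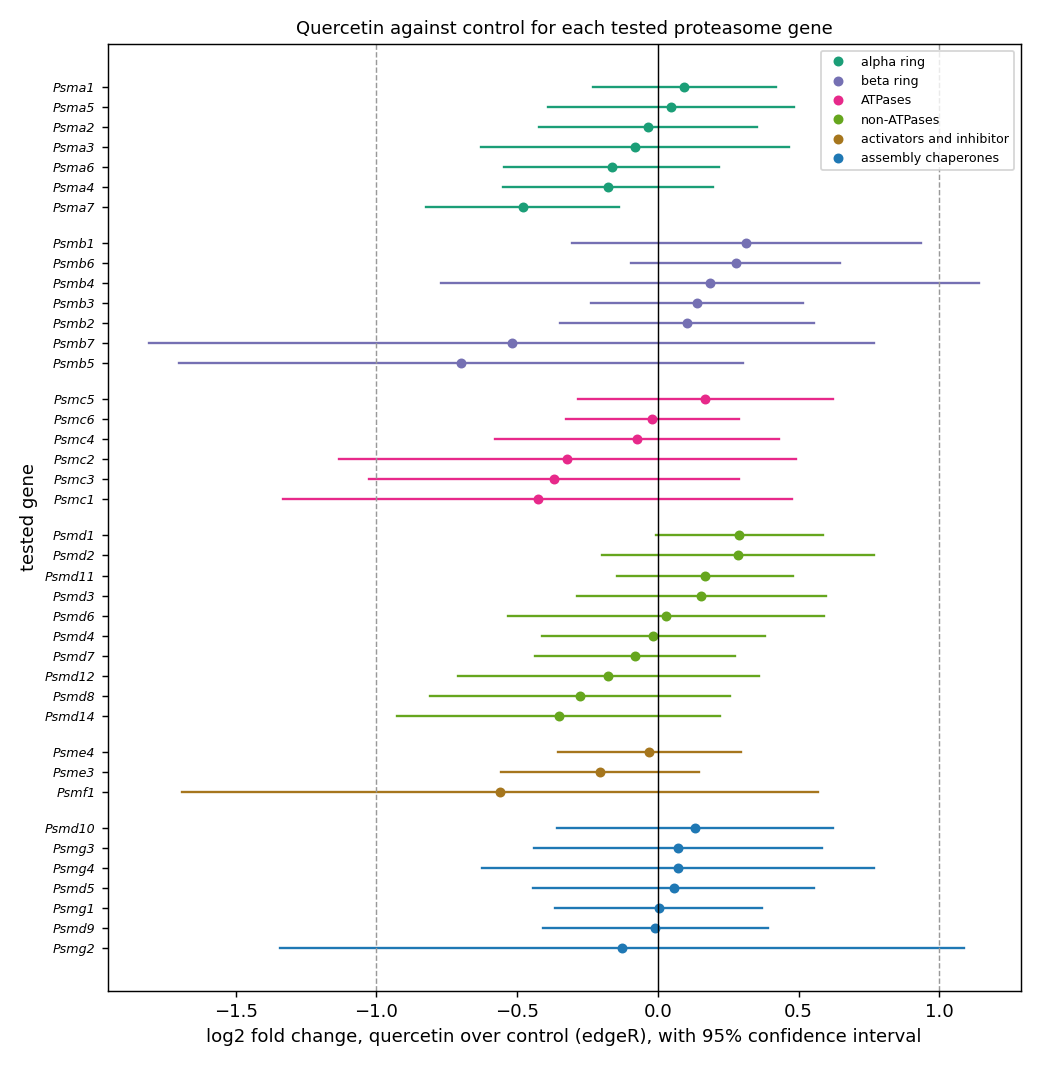
The horizontal axis gives the log2 fold change of quercetin over control for the 40 tested proteasome genes, arranged by structural group on the vertical axis, with points for edgeR's estimate, bars for its 95% confidence interval and dashed lines at a 2-fold change. The interval leaves out 0 only for Psma7, and the widest intervals are those of Psmb7 and Psmg2.

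Groups did not overlap for 1 tested proteasome gene that was higher with quercetin, Psmd1, and for 3 that were lower, Psma6, Psma7 and Psme3. Over all tested genes 5.43% were higher and 5.15% lower without overlap, so these counts are near the background. With 3 pools against 3, the two-sided exact permutation test cannot give a p below 0.1, and it gave 0.1 for all of them.

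In the alpha ring, which forms the gated entrance of the barrel, 2 of 7 tested genes were above 0 in log2 fold change and 5 below, with a median of -0.08. With a pool left out the median lay between -0.20 (quercetin pool 2) and 0.01 (quercetin pool 3, with 4 genes above 0 and 3 below). Psma7 (ENSMUSG00000027566, chr2:180036374-180042433, minus strand, GRCm38) encodes one of the subunits of this ring. It was at 184, 232 and 209 CPM in the controls and 138, 143 and 167 CPM in the treated pools. All treated pools were below all controls, with means of 208 ± 24.1 and 149 ± 15.5 CPM (SD, n = 3). This gave a log2 fold change of -0.48 (SE 0.15, 95% confidence interval -0.82 to -0.14), and the adjusted p over all genes by edgeR was 0.988. Without control pool 2 the log2 fold change was -0.39 and the unadjusted p was no longer under 0.05, whereas it stayed under 0.05 without any of the other pools and in all other settings tried.

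Psma6 was at 36.5, 39.2 and 37.0 CPM in the controls and 33.6, 35.4 and 31.6 CPM in treated pools. The gap between the groups was small beside the spread, and the log2 fold change was -0.16 (SE 0.17). With library sizes left unscaled it was -0.25, where the median of all tested genes was -0.11. Psma1 had the highest log2 fold change of the ring, 0.09 (SE 0.14), from 324, 389 and 365 CPM to 364, 433 and 355 CPM, and the groups overlapped. With a pool left out the value lay between 0.00 (quercetin pool 2) and 0.16 (control pool 2).

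Psma2 was the most abundant of the proteasome genes by union exon length, whereas Psmb2 was first by longest transcript. The CPM of Psma2 was 1456, 1521 and 1523 in the controls and 1402, 1811 and 1182 in treated pools, with a log2 fold change of -0.03 (SE 0.17) that was 0.10 without quercetin pool 3 and -0.21 without quercetin pool 2. Control pools lay close together, while quercetin pool 2 was above them and the other two quercetin pools below. Psma3, an essential subunit of the same ring, stood at only 10.4, 10.4 and 11.7 CPM in the controls and 8.87, 12.9 and 8.92 CPM in treated pools. The groups overlapped. Of its 31-base words, 20.3% also occur in other genes, and its closest processed pseudogene, Gm13835, drew more counts than Psma3 in every pool (175, 198 and 198 in control and 168, 242 and 232 in treated pools, against 93, 87 and 104 and 71, 118 and 76 for Psma3). Psma5 shares 46.2% of its words with the processed pseudogene Gm8394 and 36.7% with Gm12989, and Gm8394 had 167, 210 and 206 counts in the controls and 142, 266 and 201 in treated pools, against 329, 354 and 364 and 274, 451 and 344 for Psma5. How reads that match several genes were counted is not given in the sources used here, so that the levels of both genes are uncertain.

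Psma8 takes the place of Psma7 in proteasomes of male germ cells. It had 2, 4 and 5 counts in the controls and 11, 8 and 5 in treated pools and was under the filter. On the scaled level all quercetin pools were above all control pools, at 1.37, 0.875 and 0.587 CPM against 0.224, 0.479 and 0.561 CPM, but the nearest pools of the groups had the same count of 5, and the two-sided exact permutation p was 0.1, the smallest possible.

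The beta ring holds the cutting sites. Of its 11 genes 7 were tested, 5 above 0 and 2 below, with a median log2 fold change of 0.14, which was 0.01 without control pool 1, 0.02 without quercetin pool 2 and 0.22 without control pool 2. The constitutive catalytic subunits are Psmb5, Psmb6 and Psmb7. Psmb6, which carries the caspase-like activity, was at 177, 169 and 204 CPM in the controls and 231, 254 and 182 CPM in treated pools. Quercetin pools 1 and 2 were above all control pools, and pool 3 lay among them. The log2 fold change was 0.28 (SE 0.16), without quercetin pool 3 it was 0.40 with an unadjusted p under 0.05, and without quercetin pool 2 it was 0.17.

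Psmb5, with the chymotrypsin-like activity, had 10, 18 and 15 counts in the controls and 6, 9 and 11 in treated pools. The groups overlapped by control pool 1, and the log2 fold change of -0.70, the lowest of all tested proteasome genes, had an SE of 0.44 and an interval from -1.70 to 0.30, and was -0.46 without control pool 2 and -0.91 without control pool 1. Of its 31-base words 71.7% occur in other genes, and its processed pseudogene Gm3375 had 14, 35 and 14 counts in the controls and 12, 16 and 28 in treated pools, so that its own level is uncertain. Psmb7, with the trypsin-like activity, had 11, 35 and 9 counts in the controls and 12, 12 and 14 in treated pools. Control pool 2 alone was high: the log2 fold change was -0.52 (SE 0.57) with it and 0.40 without it, and -0.85 without control pool 3.

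Psmb1 had the highest log2 fold change of the ring and of all tested proteasome genes, 0.31 (SE 0.27). It was at 12.1, 16.3 and 16.7 CPM in the controls and 14.1, 25.6 and 16.3 CPM in treated pools, so that quercetin pool 2 alone was high and the groups overlapped, and the value was 0.02 without that pool and 0.48 without quercetin pool 1. Psmb2 was the most abundant gene of the ring per length, at 373, 365 and 550 CPM in the controls and 418, 551 and 414 CPM in treated pools. Control pool 3 and quercetin pool 2 were high to the same extent, and the log2 fold change was 0.10 (SE 0.20), 0.33 without the former and -0.04 without the latter. Psmb4 had 24, 66 and 30 counts in the controls and 33, 49 and 54 in treated pools, and its log2 fold change was 0.19 (SE 0.42) with all pools, 0.80 without control pool 2 and -0.09 without control pool 1.

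The inducible catalytic subunits replace the constitutive ones in cells exposed to interferon. Psmb8 had 1, 4 and 2 counts in the controls and 4, 0 and 0 in treated pools. Psmb9 had 0, 3 and 0 in the controls and 0 in each treated pool. Psmb10 had 0 in each control and 3, 0 and 2 in treated pools. All of them were at or near the floor in both groups, so no fold change is given. Per kilobase of exon the inducible genes made up 0.0343%, 0.254% and 0.0596% of the summed level of the 6 catalytic genes in the controls and 0.294%, 0% and 0.138% in treated pools. The thymus form Psmb11 had 1, 5 and 1 counts in the controls and 4, 4 and 2 in treated pools, also near the floor. Among 8 genes of the interferon response, Nlrc5, Tap2 and Isg15 had 0 counts in every pool, 4 were tested, and all 4 had a log2 fold change below 0 with 0 at an unadjusted p under 0.05. The median of these 4 was -0.36, beside -0.03 over all tested genes. B2m was the highest of the list per length at a mean of 77.7 CPM per kb over all pools.

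The ATPases form the ring of the regulatory particle that unfolds proteins. All 6 were tested, 1 above 0 and 5 below in log2 fold change, with a median of -0.20. The median deviation of the 6 from their own mean over all pools was 0.02, 0.12 and 0.11 (log2) in the controls, -0.28 and -0.18 in treated pools 1 and 2, and 0.27 in quercetin pool 3. The quercetin pools thus lay on both sides of the controls, and the median was -0.34 without quercetin pool 3, -0.08 without quercetin pool 1 and -0.09 without quercetin pool 2. Without control pool 3 it was also -0.09, with 3 genes above 0 and 3 below.

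Psmc1 followed this split most widely. It was at 16.3, 15.7 and 14.1 CPM in the controls, 7.37 and 6.78 CPM in treated pools 1 and 2, and 20.2 CPM in quercetin pool 3. The log2 fold change was -0.43 (SE 0.40) with all pools, and -1.12 with an unadjusted p under 0.05 without quercetin pool 3. Without quercetin pool 1 it was -0.19 and without quercetin pool 2 -0.16, with an unadjusted p above 0.05. Its words are shared with other genes to 32.2%, mostly with the pseudogene Gm9575, which had 2 to 10 counts per pool.

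Psmc5 had the highest log2 fold change of the ATPases, 0.17 (SE 0.20), with 25.8, 28.5 and 27.8 CPM in the controls and 27.0, 27.9 and 37.5 CPM in treated pools, where pool 3 was high, and the value was 0.00 without that pool and 0.26 without quercetin pool 1. Psmc6 was the most abundant per length and the most even: 99.1, 112 and 109 CPM in the controls and 103, 106 and 108 CPM in treated pools, for a log2 fold change of -0.02 (SE 0.14) that was 0.01 without control pool 2, -0.07 without control pool 1 and -0.10 with library sizes left unscaled, where the median of all tested genes was -0.11. The quercetin pools lay within the range of the control pools. Psmc2, the lowest per length, was at 5.71, 6.11 and 4.49 CPM in the controls and 2.62, 3.94 and 6.45 CPM in treated pools, with quercetin pool 3 above all controls and the other 2 below. Psmc3 had a log2 fold change of -0.37 (SE 0.29), which lay between -0.50 (control pool 2) and -0.18 (control pool 3) with a pool left out. For Psmc4 it was -0.07 (SE 0.22), and between -0.19 (control pool 1) and 0.05 (quercetin pool 2).

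The non-ATPases build the base and lid of the regulatory particle and hold its ubiquitin receptors and its deubiquitinase. Of 11, 10 were tested, 5 above 0 and 5 below, with a median of 0.01, which was -0.05 without quercetin pool 1, -0.01 without quercetin pool 3, 0.09 without quercetin pool 2 and -0.07 with library sizes left unscaled. Psmd1 (ENSMUSG00000026229, chr1:86064387-86139151, plus strand) encodes the large scaffold of the base. It was at 512, 443 and 444 CPM in the controls and 599, 555 and 557 CPM in treated pools. All treated pools exceeded all controls, with means of 466 ± 39.7 and 570.4 ± 24.5 CPM (SD, n = 3). This gave a log2 fold change of 0.29 (SE 0.13, 95% confidence interval -0.01 to 0.59, adjusted p = 0.988 by edgeR). Its unadjusted p was not under 0.05 with all pools but was without control pool 1 (0.36) or quercetin pool 3 (0.31), with limma-voom (0.29) and with DESeq2 size factors (0.31, all log2 fold changes), and with library sizes left unscaled its groups overlapped.

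Psmd14 encodes the deubiquitinase of the lid, which removes ubiquitin chains before a protein enters. It had 133, 167 and 146 counts in the controls and 85, 110 and 149 in treated pools, with the lowest log2 fold change of the group, -0.35 (SE 0.25). Quercetin pools 1 and 2 were below all controls and pool 3 among them, and the value was -0.59 with an unadjusted p under 0.05 without pool 3, -0.21 without pool 1 and -0.22 without control pool 2. Psmd12, a lid scaffold, was also below all controls in quercetin pools 1 and 2, but above all of them in pool 3: 68.9, 75.7 and 78.7 CPM in the controls, 59.3 and 47.5 CPM in treated pools 1 and 2 and 91.0 CPM in pool 3, with a log2 fold change of -0.18 (SE 0.24) that was -0.48 without pool 3, where its unadjusted p was under 0.05, -0.10 without pool 1 and 0.02 without pool 2.

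Psmd6 was the lowest tested gene of the group per length, at 9.73, 9.58 and 8.08 CPM in the controls and 8.25, 8.09 and 11.6 CPM in treated pools, and the groups overlapped. Psmd13, another lid subunit, was under the filter with 1, 19 and 4 counts in the controls and 4, 10 and 11 in treated pools. Control pool 2 was the highest and control pool 1 the lowest, so no group stood apart. The remaining non-ATPases, Psmd2, Psmd3, Psmd4, Psmd7, Psmd8 and Psmd11, had log2 fold changes from -0.28 to 0.28. The highest, Psmd2, was at 0.09 without quercetin pool 3 and 0.42 without quercetin pool 2. The lowest, Psmd8, was at -0.13 without quercetin pool 2 and -0.45 without quercetin pool 3.

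Activators cap the barrel in place of the regulatory particle. Psme4 encodes PA200, a cap known from sperm development and from the degradation of acetylated histones. It was the most abundant activator gene, at 517, 442 and 475 CPM in the controls and 498, 503 and 404 CPM in treated pools. The groups overlapped, with a log2 fold change of -0.03 (SE 0.14, 95% confidence interval -0.36 to 0.30) that was 0.07 without quercetin pool 3, 0.03 without control pool 1 and -0.08 without quercetin pool 2. Psme3 encodes the nuclear activator PA28 gamma. It was at 58.8, 53.4 and 62.6 CPM in the controls and 50.4, 49.9 and 51.5 CPM in treated pools, without overlap. The log2 fold change was -0.21 (SE 0.16, adjusted p = 0.988 by edgeR), and the exact permutation p was 0.1.

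Psme1 and Psme2 encode the cytoplasmic activator PA28 alpha and beta, which interferon induces. Psme1 had 3, 3 and 1 counts in the controls and 0, 0 and 3 in treated pools. Psme2 had 0, 4 and 3 counts in the controls and 0, 4 and 8 in treated pools. Psme2b, a copy that shares 78.4% of its 31-base words with other genes, chiefly Psme2, had 3, 8 and 2 counts in the controls and 5, 2 and 9 in treated pools. All of them were under the filter and overlapped between the groups. Psmf1, the inhibitor PI31, was at 8.50, 27.1 and 6.28 CPM in the controls and 8.75, 8.09 and 11.5 CPM in treated pools. Control pool 2 was again high: the log2 fold change was -0.56 (SE 0.50) with it and 0.35 without it, and -0.91 without control pool 3. The median of the 3 tested genes of the group was -0.21, and -0.08 without control pool 2.

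Assembly chaperones pair and order the subunits and then leave. All 7 were tested, 5 above 0 and 2 below, with a median log2 fold change of 0.06, which was -0.03 with library sizes left unscaled. It was also below 0 without control pool 1 (3 genes above 0 and 4 below) and without quercetin pool 2 (-0.03, with 2 above and 5 below), and 0.15 without control pool 2. Psmg1, which starts the alpha ring together with Psmg2, was the most abundant per length, at 99.3, 75.2 and 81.0 CPM in the controls and 91.5, 85.2 and 79.5 CPM in treated pools. Its partner Psmg2 had 11, 15 and 7 counts in the controls and 4, 12 and 14 in treated pools, with a log2 fold change of -0.13 (SE 0.54) that was 0.20 without control pool 2, 0.22 without quercetin pool 1 and -0.45 without quercetin pool 3. Both overlapped between the groups. Psmd10, or gankyrin, had the highest log2 fold change of the chaperones, 0.13 (SE 0.22), at 11.5, 15.3 and 16.4 CPM in the controls and 15.2, 16.4 and 15.7 CPM in treated pools. Control pool 1 was low and the other pools lay together, and the value was just below 0 without control pool 1 and 0.24 without control pool 3. Psmd5, Psmd9, Psmg3 and Psmg4 had log2 fold changes from -0.01 to 0.07. With a pool left out these values lay between -0.16 (Psmd9, quercetin pool 2) and 0.27 (Psmg4, quercetin pool 3). For Psmd9, 25.5% of the exon length lies under the antisense gene Gm26745, whose reads cannot be told apart without strand.

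Psmc3ip, which matches the symbols but helps strand exchange in meiosis, had 153, 150 and 171 counts in the controls and 37, 189 and 144 in treated pools. Quercetin pool 1 alone was low: the log2 fold change was -0.36 (SE 0.44) with it and 0.06 without it, and -0.75 without quercetin pool 2.

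Levels between genes were compared as mean CPM per kilobase (kb) of union exon length over all 6 pools. The core and regulatory particles hold their subunits in fixed ratios. The tested proteasome genes nevertheless ranged from 404 CPM per kb for Psma2 to 0.530 CPM per kb for Psmb7, a ratio of 761. This lower end depends on the filter, since the lid subunit Psmd13, under the filter, was at 0.282 CPM per kb. It also rests on few reads, as Psmb7 had 9 to 35 counts per pool. Of the exon length of Psmb7, 11.8% lies under Nek6 on the other strand. The SD of log2 CPM per kb was 2.31 for the tested proteasome genes and 2.60 for all tested genes. Psma2 and Psmb2 (369.7 CPM per kb) made up 23.9% and 21.8% of the summed level of the proteasome genes. The median of the 40 tested genes was 15.2 CPM per kb, against 3.29 for all tested genes with an exon length. Unlike the proteasome genes, the set of all tested genes was not limited to protein-coding genes, so the 2 sets differ in kind.

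Among the tested genes of the alpha ring, levels per kb ran from Psma2 down to 2.70 for Psma3, and of the beta ring from Psmb2 down to Psmb7. The beta ring fell into a high set of Psmb2, Psmb6 (108 CPM per kb) and Psmb3 (59.4) and a low set of Psmb1 (3.67), Psmb4 (2.54), Psmb5 (1.48) and Psmb7, with no tested gene between. Tested ATPases ran from 30.3 CPM per kb for Psmc6 to 0.971 for Psmc2, and tested non-ATPases from 71.4 for Psmd1 to 3.29 for Psmd6. Psme4 stood at 56.5 and Psme3 at 18.5 CPM per kb, while Psmf1 was at 1.82. Psmg1 was at 63.5 and Psmg2 at 0.697 CPM per kb, although their proteins act as a pair. By longest transcript as length the tested genes at the ends of each group were the same, but most levels were higher, as for Psmd1 (167 CPM per kb), Psmd6 (6.65) and Psmb1 (8.55).

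This order was nearly the same in every pool. Across the 40 tested genes the Spearman correlation of levels per kb lay between 0.970 and 0.991 for pools of the same group and between 0.977 and 0.989 for pools of different groups, a description across genes that share libraries and are not independent. The order followed neither the share of 31-base words found in other genes (Spearman -0.117) nor union exon length (-0.0600) closely. Of the 9 genes under the filter, Psme2b was the highest at 0.680 CPM per kb and Psmb9 the lowest at 0.0164.

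**Figure D2:**
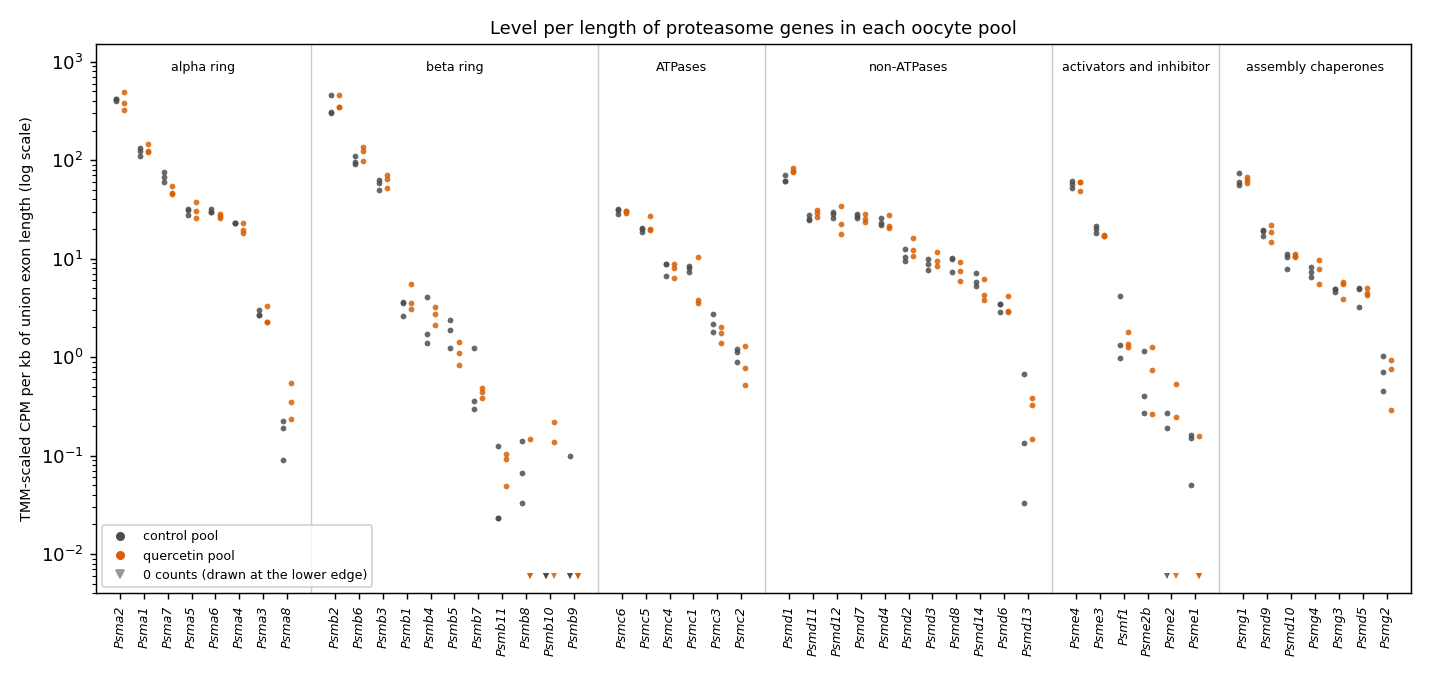
Each point is 1 pool, grey for control and orange for quercetin, placed on a log axis by its CPM per kb of union exon length, with the 49 proteasome genes on the horizontal axis in 6 structural groups and triangles for pools with 0 counts. Genes of the same ring differ far more than pools of the same gene, from 404 CPM per kb for Psma2 to 2.70 for Psma3 in the tested alpha ring.

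Other genes of the pathway were described in the same way. Of 12 proteasome partners outside the symbol rule, 11 were matched and tested, 2 above 0 and 9 below, with a median log2 fold change of -0.07 and 0 at an unadjusted p under 0.05 in either direction. Per length the highest was Akirin2, which brings proteasomes into the nucleus, at 242 CPM per kb, and the lowest Adrm1, a ubiquitin receptor, at 2.21. Of 12 shuttle and unfoldase genes 11 were tested, 1 above 0 and 10 below, with a median of -0.27 and 2 lower at an unadjusted p under 0.05. Of all tested genes 46.4% were above 0, with a median of -0.03, and 1.89% were lower at that p.

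Those were Ubqln2 and Nploc4. Ubqln2, a shuttle that carries ubiquitinated proteins to the proteasome, had 671, 688 and 629 counts in the controls and 431, 414 and 449 in treated pools. The groups did not overlap, and the log2 fold change was -0.59 (SE 0.16, adjusted p = 0.988 by edgeR). Nploc4, a cofactor of the unfoldase Vcp, had 19, 36 and 32 counts in the controls and 16, 14 and 9 in treated pools, also without overlap (log2 fold change -1.12, SE 0.41, adjusted p = 0.988 by edgeR). The unadjusted p of Ubqln2 stayed under 0.05 in every setting tried, and that of Nploc4 did not without control pool 2 (log2 fold change -0.90), control pool 3 (-1.06) or quercetin pool 3 (-0.92). A further gene of the list, the shuttle Rad23b, was lower without overlap, with 255, 199 and 188 counts in the controls and 168, 96 and 166 in treated pools (log2 fold change -0.53, SE 0.28). Thus 3 of the 11 did not overlap, beside 5.15% of all tested genes, although the groups of Rad23b overlapped with DESeq2 size factors. In this list Ubqln1 was the highest per length at 88.2 CPM per kb and Ubqln4 the lowest at 0.242.

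Of 6 genes for ubiquitin and its activating enzymes, 5 were tested, 2 above 0 and 3 below, with a median of -0.09 and 0 at an unadjusted p under 0.05. Ubb was the highest per length at 460.2 CPM per kb, although 50.3% of its 31-base words occur in other genes, and Rps27a, with 0 to 3 counts per pool and 28.5% of its words shared, was the lowest at 0.0685. The 5 regulators of proteasome genes had a median of -0.00496, 2 above 0 and 3 below. Among them Nfe2l2 was the highest per length at 9.89 CPM per kb, with all treated pools above all controls (log2 fold change 0.26, SE 0.18), beside 5.43% of all tested genes, but its groups overlapped with library sizes left unscaled. Ngly1 followed at 9.64 and was first by longest transcript, at 22.1 against 15.2 for Nfe2l2. Vcp was the lowest at 1.32, but 46.3% of its 31-base words occur in other genes, so that its level is uncertain. Its processed pseudogene Vcp-rs had 107, 125 and 95 counts in the controls and 48, 68 and 124 in treated pools. Vcp itself had 50, 67 and 51 and 24, 77 and 66. The main inducer of proteasome genes, Nfe2l1, was at 3.29 CPM per kb with a log2 fold change of -0.21 (SE 0.20).

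Promoters were searched for the core of the antioxidant response element, the letters TGACNNNGC on either strand, because the factors Nfe2l1 and Nfe2l2 bind it. RefSeq promoter windows of 300 bases (GRCm38.p6) were matched for 41 of the 49 proteasome genes, and 6 of them (14.6%) held the core, beside 3781 of the 27025 genes in the whole table (14.0%). The share of members was thus close to that of all genes. A match is a description of letters only. The cores are shown in capitals, read on the strand that spells them, to let their flanks be compared.
Psmb5: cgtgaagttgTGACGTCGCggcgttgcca
Psmb6: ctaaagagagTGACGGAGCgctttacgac
Psmc6: gagcaatgccTGACTTAGCtactggctgg
Psmd9: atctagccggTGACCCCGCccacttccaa
Psmd12: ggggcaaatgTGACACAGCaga
Psme4: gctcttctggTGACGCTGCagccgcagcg

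These stretches lie at chr14:54618024-54618052 on the minus strand for Psmb5, chr11:70525338-70525366 on the plus strand for Psmb6, chr14:45329587-45329615 on the minus strand for Psmc6, chr5:123228149-123228177 on the plus strand for Psmd9, chr11:107479278-107479299 on the minus strand for Psmd12 and chr11:30771758-30771786 on the minus strand for Psme4. In the GENCODE annotation those of Psmb5, Psmb6, Psmc6 and Psmd12 lie upstream of the gene, and those of Psmd9 and Psme4 inside it. Their genes include some of the most abundant, Psme4 and Psmb6, and one of the least, Psmb5.

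The last 100 bases of the principal transcript were also searched, a choice made after the levels were seen, because the polyadenylation signal and the cytoplasmic polyadenylation element there bear on the storage of messages in oocytes. The signal AATAAA or ATTAAA was present in 36 of the 40 tested proteasome genes (90.0%) and in 81.7% of the 9808 tested genes with such a transcript. The element, searched as TTTTAT or TTTTAAT, both of which can overlap the signal, was present in 6 of the 40 (15.0%), beside 21.3% of all. The median level was 45.1 CPM per kb in those 6 and 11.1 in the others, and 4.78 against 2.61 over all genes, without a test. The elements of the 6 are in capitals, with 8 bases on either side where the transcript allows.
Psma1: accaatgtTTTTATatgaagaa
Psma5: gtgtgtttTTTTATgaagtctg
Psmb1: ttgcttttTTTTAATaaacttct
Psmb3: gtttttctTTTTAATaaaattgc
Psmg1: gttttgtaTTTTATtctggctt
Psmg3: gaagatttTTTTATtaaaaata

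In Psmb1, Psmb3 and Psmg3 the element runs into the signal. Psma1, Psmb3 and Psmg1 were among the most abundant proteasome genes, whereas Psmb1 and Psmg3 were at 3.67 and 4.94 CPM per kb. The most abundant of them, Psma2 and Psmb2, did not hold these letters in this window.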

How the data were processed

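Oocyte pools were grouped as control or quercetin from the sample titles. The authors deposited read counts per Ensembl gene, unnormalized. The paper names Hisat2 and the submitters' processing notes name TopHat2 2.0.6 and CASAVA 1.8, and the counter, its use of strand and its handling of reads that match several genes are not given in the sources used here. Symbols were matched for 53360 identifiers, and coordinates and lengths came from GENCODE release M21 (GRCm38).

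At least 1 count was seen for 24476 genes, and filterByExpr (minimum count 10) kept 11842. Counts were scaled by TMM and tested with edgeR 4.0.16 under R 4.3.3 by its quasi-likelihood test (glmQLFit, glmQLFTest) without covariates, p-values were adjusted by Benjamini-Hochberg across the tested genes, and genes were called with adjusted p below 0.05 and over 2-fold change. For single genes an exact permutation test (two-sided) used log2 CPM (prior count 2). Alternatives were DESeq2 1.42.0, the edgeR likelihood ratio test, limma-voom (limma 3.58.1), DESeq2 size factors, unscaled library sizes, other filters, leaving out each pool, a replicate block and the longest transcript as length.

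Members and lists were chosen with earlier results of these data known. Named were members with an unadjusted p under 0.05, without overlap, with the highest or lowest change or level in their group, catalytic, inducible and tissue forms, activators and inhibitor, and those under the filter; of the other lists, genes with an unadjusted p under 0.05 and the highest and lowest level. Others named were chosen after their values were seen. The lists were proteasome partners, shuttles and Vcp unfoldase, ubiquitin supply, regulators of proteasome genes, interferon response, and oocyte, cumulus and granulosa, and immune cell markers. Shared sequence was measured as 31-base words of the transcripts. Python 3.11.15 was used for tables and figures.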

Additional observations from a re-analysis of the deposited data

How the results depend on the processing

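No proteasome gene passed the adjusted threshold in any of the settings tried. Genes of the whole table called by adjusted p and fold change numbered 0 in the main setting, 12 with DESeq2, 16 with the likelihood ratio test, 3 with a filter of at least 1 count in total, and 0 to 7 when a pool was left out. Genes at an unadjusted p under 0.05 numbered 477, 780 with the looser filter, and 241 (without control pool 2) to 1563 (without quercetin pool 3) with a pool left out. Proteasome genes at that threshold numbered 1, then 2 with limma-voom and with DESeq2 size factors, and 0 to 6 with a pool left out, and the cause was not tested. The 6, of 40, were without quercetin pool 3, where the 1563 genes were of 12258 tested. With all pools the median log2 fold change of the 40 tested proteasome genes was -0.02. With library sizes left unscaled it was -0.11, as was the median of all tested genes, and 0 of the 40 were higher without overlap. With the longest transcript as length, medians per kb moved to 44.1 CPM for the alpha ring, 8.55 for the beta ring, 23.5 for the non-ATPases, 20.4 for activators and inhibitor and 18.2 for all 40, since the length is shorter, and Psmb2 came before Psma2. With the replicate block 0 genes were called, 492 had an unadjusted p under 0.05, and 1 proteasome gene did; deviations of same-numbered pools correlated at 0.30, 0.10 and -0.03, so the numbers were not taken as a pairing. The sign of the log2 fold change turned in at least 1 setting for 21 of the 41 genes tested under the symbol rule, and in none for 20. Psma7, Psmd1, Psma6 and Psme3 were among the 20. Their groups did not overlap with all pools, so leaving out a pool could hardly turn their sign. For Psmb4, Psmb5, Psmb7, Psmc1, Psmc2, Psmc3, Psmf1 and Psmg2 the 95% interval held both 0 and a 2-fold change, and the cause was not tested.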
